A study of Mus musculus with 18 samples.

Results

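The 48 genes described here encode the proteasome of mouse CD4+ T cells, with its assembly factors, activators and inhibitor. They are the genes whose symbol begins with Psma, Psmb, Psmc, Psmd, Psme, Psmf or Psmg and that had at least 1 probe set assigned to a single gene, out of 12393 genes with such a probe set. Each gene was read from its brightest probe set, by the mean of all 18 arrays. Of the 48, 46 are proteasome genes in the strict sense, and 2 share the prefix only: Psmc3ip, a partner of meiotic recombination enzymes, and Psme3ip1, which binds an activator of the proteasome. In 47 of the 48 the log2 signal was at or above 4 on all 18 arrays, and these were tested among 6873 genes. The exception was Psma8, the testis form of an alpha subunit, which lay between 2.14 and 2.21 on all 18 arrays. The activator gene Psme2 is carried by a probe set annotated to 2 genes and was not analysed here.

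Mice 6 to 8 weeks old gave the CD4+ T cells, whose RNA was hybridised to 18 arrays (Affymetrix Mouse Genome 430A). There are 6 groups, each with 3 samples that the design calls separate biological replicates. The cells were enriched by negative selection, to a purity over 95% by the labels. Wild-type and ERRa-/- cells, which lack the nuclear receptor ERRα encoded by Esrra, were either collected straight from the mouse (resting) or after 12 h with 10 µg of antibodies to CD3 and CD28 (stimulated). The remaining groups were wild-type cells with 20 µM XCT790 or 20 µM compound A, both described as ERRα inhibitors and both placed in the 12 h stimulation by the protocol. The stimulation field of these 6 arrays says that they were not stimulated, so each inhibitor was set against stimulated and resting wild-type cells. The labels do not name the strain, the allele design or how many mice gave each sample. The values are log2 GCRMA signals, so a difference of 1 is a 2-fold change in signal. "Passed" means an adjusted p under 0.05 from limma, a linear model fitted to all 18 arrays, with Benjamini-Hochberg adjustment over the 6873 genes.

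The proteasome degrades proteins tagged with ubiquitin. Its barrel, the 20S core, stacks alpha rings that gate the entrance on beta rings that cut the substrate, and only the subunits encoded by Psmb5, Psmb6 and Psmb7 are proteolytic. In lymphocytes, and in other cells exposed to interferon gamma, these can be replaced by Psmb8, Psmb9 and Psmb10, giving the immunoproteasome, whose cuts favour peptides that fit MHC class I. The 19S cap recognises, unfolds and feeds the substrate through a base with a ring of ATPases (Psmc1 to Psmc6) and a lid that removes ubiquitin. Psmg1 to Psmg4 and Pomp chaperone assembly of the core, and Psme1 to Psme4 encode caps that can take the place of the 19S. The transcription factor Nrf1, encoded by Nfe2l1, raises the constitutive subunits together when proteasome capacity falls short.

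The labels were checked first. Esrra read 5.51, 5.25 and 5.51 in resting and 5.28, 5.47 and 5.36 in stimulated wild-type cells, against 4.34, 4.65 and 4.65 in resting and 4.33, 4.30 and 4.71 in stimulated knockout cells, so the genotypes did not overlap. The sources used here do not say whether the deletion covers this probe set. Il2 read 3.96 to 4.74 in resting and 11.1 to 11.3 in stimulated wild-type cells, 10.6 to 11.1 with XCT790 and 9.80 to 10.6 with compound A. By Il2 the inhibitor arrays thus lay far above rest, as the protocol has it and unlike the stimulation field. Cd4 was at 8.30 or more on every array, and Cd8a at 2.24 to 2.25. The other CD8 marker, Cd8b1, read 4.84 to 7.77 over the 18 arrays. Array 1 stood apart in both knockout groups: the SD of its differences from arrays 2 and 3 over all genes was 0.442 to 0.529, against 0.193 and 0.120 between arrays 2 and 3. Other cell types were present in the resting samples. The mean of 8 macrophage markers ran from 8.30 to 9.24 in resting wild-type and 8.90 to 10.7 in resting knockout arrays, and from 2.40 to 4.03 on all 12 others. The mean of 5 erythroid markers ran from 3.51 to 6.55 in resting wild-type and 8.39 to 10.4 in resting knockout arrays, and was at or under 2.37 on the others. In bulk RNA, fewer cells of a type and less RNA per cell cannot be told apart. The bacterial dap control read 3.99 to 6.38 at its 5' end on the 6 wild-type arrays without inhibitor and 7.45 to 8.51 on the other 12, so in any comparison of knockout or inhibitor arrays with those 6 the group and this split cannot be told apart.

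**Figure D1:**
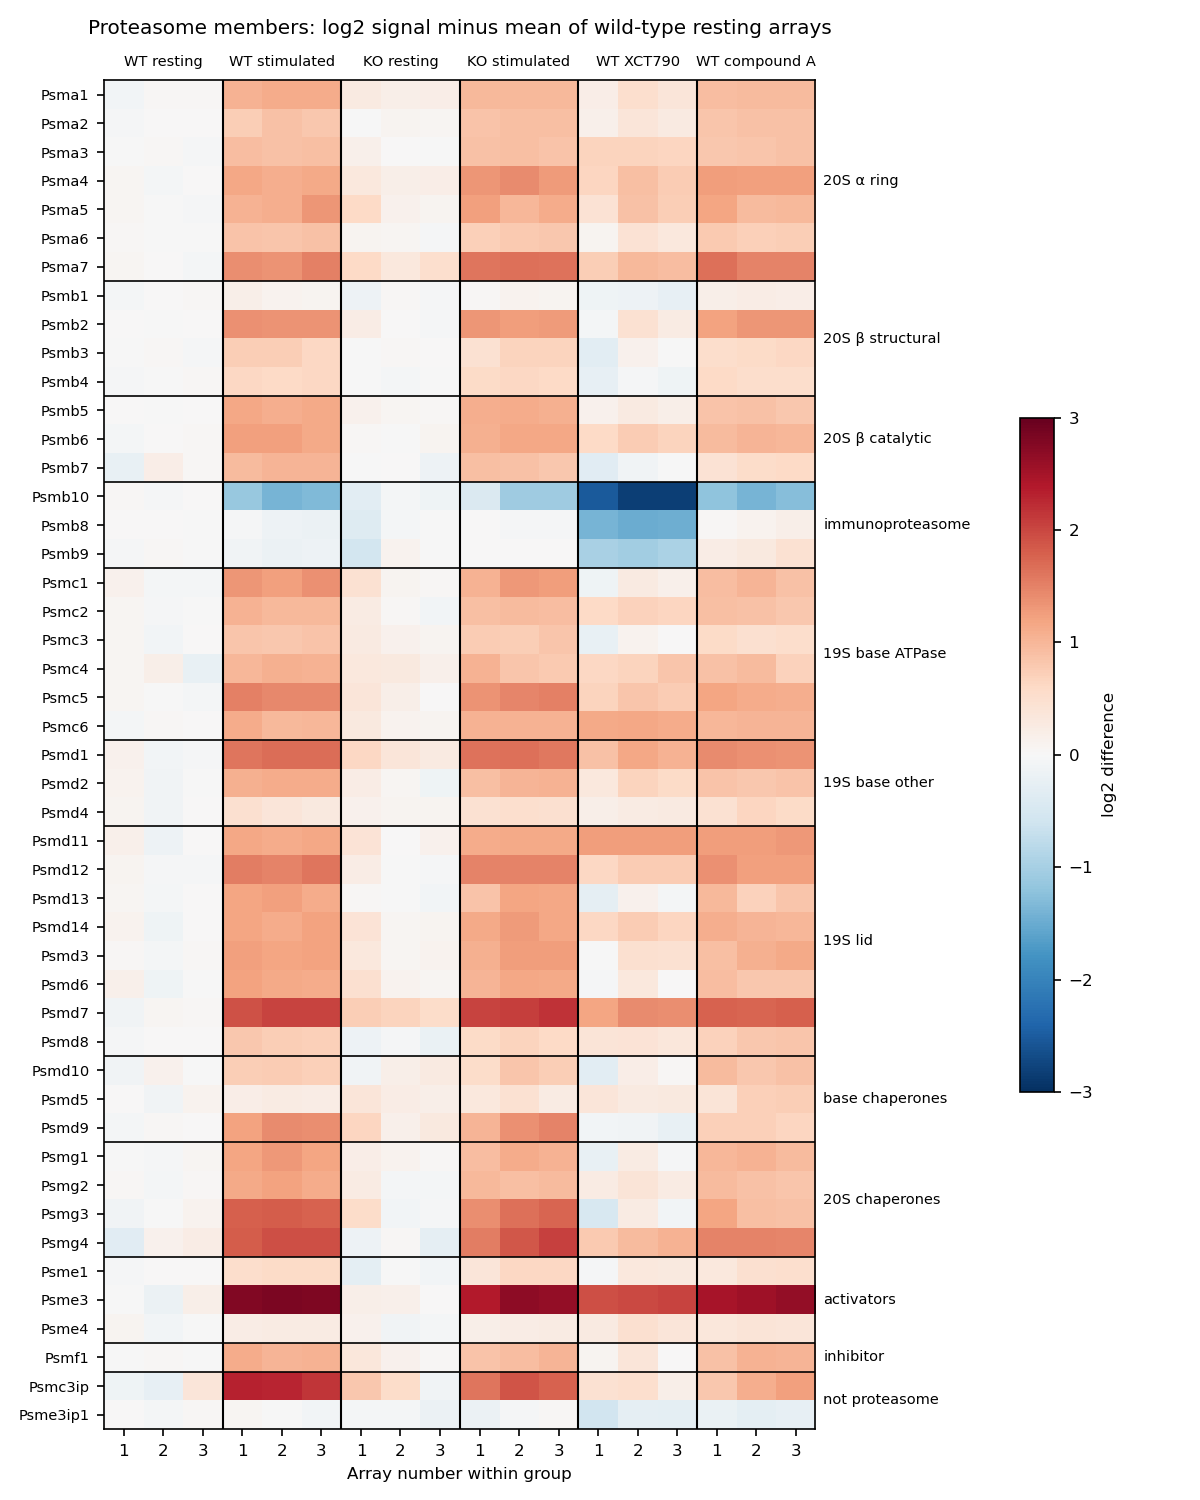
Heat map of the 47 tested genes (rows, grouped by role) on the 18 arrays (columns, 3 per group), coloured by the log2 signal minus the gene's mean over the wild-type resting arrays, from -3 (blue) to 3 (red). Nearly all rows turn red in both stimulated groups and with compound A and are paler with XCT790, while the 3 immunoproteasome rows do not turn red on stimulation and are bluest with XCT790.

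Stimulation of wild-type cells was accompanied by a rise in nearly the whole proteasome. Of the 47 members tested, 42 rose and 1 fell, with a median log2 difference of 1.10, against -0.01 over all genes tested. Of all genes, 37% rose and 38.4% fell, 75.4% in all. The arrays of 43 members lay wholly above and of 3 wholly below the resting arrays (41.3% and 41.9% of all genes). The differences ran from -1.28 to 2.80, and their standard errors from 0.05 to 0.21. The 4 members that did not pass were Psmb1, Psmb8, Psmb9 and Psme3ip1. Resting cells were taken straight from the mouse, so activation and 12 h in culture change together. Markers of other cells fell here: 8 of 8 macrophage (median -6.49), 3 of 5 erythroid and 2 of 7 tested neutrophil precursor markers. So did 5 of 5 tested B cell markers (median -3.32), the 1 tested NK cell marker (-2.07) and the 1 tested dendritic cell marker (-2.21). T cell markers fell too, 4 of 7 with 0 rising (median -0.59). The mean of 6 B cell markers ran from 7.34 to 8.36 on resting and from 5.09 to 5.42 on stimulated wild-type arrays. The part of these cell types in the results, the immunoproteasome genes included, was not tested.

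The alpha ring moved as a block. All 7 tested alpha genes rose, by 0.81 (Psma2) to 1.42 (Psma7) with a median of 1.09. Psma7 read 10.93, 10.87 and 10.80 in resting and 12.27, 12.22 and 12.37 in stimulated wild-type cells, a 2.68-fold rise (1.42 ± 0.08, SE; limma adjusted p = 1.58e-09). The structural beta subunits were more uneven. Psmb2 rose by 1.35 ± 0.10, Psmb3 by 0.70 ± 0.10 and Psmb4 by 0.61 ± 0.06, whereas Psmb1 averaged 12.50 ± 0.06 (SD, n = 3) at rest and 12.63 ± 0.05 after stimulation. Its arrays did not overlap, but the difference of 0.12 (95% interval -0.01 to 0.25) did not pass (limma adjusted p = 0.0877). It passed in 3 alternatives: after a shift of all arrays to a common median (0.17), without the filter on dim probe sets and under a trended, robust prior (both 0.12).

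The catalytic subunits split by type. The constitutive cutters rose: Psmb5, the chymotrypsin-like subunit, from 10.89, 10.86 and 10.90 to 12.04, 11.96 and 12.03 (2.19-fold; 1.13 ± 0.05, SE; limma adjusted p = 1.9e-10). Psmb6, the caspase-like subunit, went from 10.92, 10.98 and 11.01 to 12.19, 12.19 and 12.10 (2.28-fold; 1.19 ± 0.06; limma adjusted p = 2.88e-10). Psmb7, the trypsin-like subunit, went from 11.46, 11.88 and 11.72 to 12.63, 12.70 and 12.71 (1.99-fold; 0.99 ± 0.10; limma adjusted p = 4.73e-07). In none of these 3 did a resting array reach a stimulated one. Their immunoproteasome counterparts did not follow.

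Psmb8, the inducible counterpart of Psmb5, read 12.81, 12.81 and 12.79 at rest and 12.77, 12.66 and 12.63 after stimulation, a difference of -0.12 (95% interval -0.30 to 0.06; limma adjusted p = 0.21). Psmb9, the counterpart of Psmb6, read 12.15, 12.22 and 12.18 and then 12.07, 12.02 and 12.04, a difference of -0.14 (-0.40 to 0.12; limma adjusted p = 0.308). Both were lower on every stimulated array without passing. They passed with array weights and on arrays 2 and 3 alone, and Psmb9 also in a fit on the 2 groups alone, with differences from -0.13 to -0.17. Psmb10, the counterpart of Psmb7, fell from 11.47, 11.38 and 11.43 to 10.30, 10.04 and 10.10 (2.43-fold lower; -1.28 ± 0.15; limma adjusted p = 1.76e-06). It was the only member that fell.

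The upstream sequences of the 3 inducible cutters, with Psmb5 as 1 constitutive gene, are shown because the inducible genes did not follow the constitutive ones on stimulation. They are the 250 bases before the transcription start in RefSeq (GRCm38.p6), on the gene's own strand: chr14:54617996-54618245 for Psmb5 (minus strand), chr17:34197945-34198194 for Psmb8 (plus), chr17:34187331-34187580 for Psmb9 (minus) and chr8:105938393-105938642 for Psmb10 (minus). Capitals mark a match to 1 of the motifs searched on both strands: an antioxidant response element (TGACNNNGC) in Psmb5, a GAS-like motif (TTCNNNGAA) in Psmb8, a CCAAT box read on the other strand in Psmb9, and an ERR core motif (AGGTCA) read on the other strand in Psmb10.
Psmb5: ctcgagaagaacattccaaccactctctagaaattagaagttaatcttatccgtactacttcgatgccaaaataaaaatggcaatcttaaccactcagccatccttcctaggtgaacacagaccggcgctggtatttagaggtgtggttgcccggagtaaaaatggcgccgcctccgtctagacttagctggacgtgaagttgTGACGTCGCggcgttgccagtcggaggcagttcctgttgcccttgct
Psmb8: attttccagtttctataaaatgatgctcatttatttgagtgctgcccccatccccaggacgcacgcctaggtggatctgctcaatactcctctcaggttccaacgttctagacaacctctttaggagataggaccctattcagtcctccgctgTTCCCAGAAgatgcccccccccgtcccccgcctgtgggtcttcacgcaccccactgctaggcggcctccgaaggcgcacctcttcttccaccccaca
Psmb9: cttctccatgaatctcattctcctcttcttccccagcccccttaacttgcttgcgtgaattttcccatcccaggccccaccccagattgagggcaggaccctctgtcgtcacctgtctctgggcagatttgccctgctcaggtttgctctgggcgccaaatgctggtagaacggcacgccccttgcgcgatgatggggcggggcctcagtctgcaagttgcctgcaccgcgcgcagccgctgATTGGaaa
Psmb10: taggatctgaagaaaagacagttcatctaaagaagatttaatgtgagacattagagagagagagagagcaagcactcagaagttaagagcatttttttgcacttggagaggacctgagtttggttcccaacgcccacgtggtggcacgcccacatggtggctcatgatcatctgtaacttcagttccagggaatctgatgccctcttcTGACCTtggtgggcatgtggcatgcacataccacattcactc
Psmb9, the peptide transporter gene Tap1 and Psmb8 are neighbours on chromosome 17, and the far end of the Psmb9 window reaches into Tap1. Upstream windows were given for 38 of the 46 proteasome genes. The ERR core motif was found in 9 of these 38 (23.7%) and in 15.8% of 27025 genes. The 9 were Psma3, Psma6, Psma7, Psmb10, Psmc2, Psmc4, Psmc5, Psmd2 and Psmd6. The extended element TCAAGGTCA, which contains the core motif, was found in 0 of 38 and in 0.422% of all genes. An antioxidant response element was found in 5 of 38 (13.2%; 11.5% of all genes), namely Psmb5, Psmb6, Psmc6, Psmd12 and Psmd9. The CCAAT box was found in 13 (34.2%; 37.5%), the GAS-like motif in 2 (5.26%; 8.13%) and an ISRE-like motif (GAAA, NN, GAAA) in 3 (7.89%; 3.46%). These are letter matches, with no measurement of binding.

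To follow each pair within an array, the log2 difference between the inducible and the constitutive gene was taken on every array and set to 0 at the mean of the wild-type resting arrays. Array scaling drops out of this quantity, and it shows unequal change, not the ratio of the proteins. In stimulated wild-type cells the Psmb8 to Psmb5 difference was -1.25 ± 0.06 (SD, n = 3), Psmb9 to Psmb6 was -1.33 ± 0.06 and Psmb10 to Psmb7 was -2.27 ± 0.17. In stimulated knockout cells the same differences were -1.10 ± 0.03, -1.11 ± 0.06 and -1.72 ± 0.34, each above all 3 wild-type stimulated arrays. Resting knockout cells were at -0.23 ± 0.25, -0.18 ± 0.36 and -0.12 ± 0.16. The changes from knockout rest were thus smaller, at -0.88, -0.94 and -1.59. With XCT790 the differences from wild-type rest were -1.65 ± 0.11, -1.66 ± 0.12 and -2.57 ± 0.34, and with compound A -0.74 ± 0.10, -0.67 ± 0.10 and -1.82 ± 0.16. For all 3 pairs the compound A arrays lay above and, except for Psmb10 to Psmb7, the XCT790 arrays lay below the stimulated arrays without overlap. Each of those separations has an exact permutation p of 0.10 (two-sided), the smallest possible, which any 3 against 3 arrays without overlap give. The p-value thus adds nothing to the separation. Of single genes, 24.1% lay wholly above the stimulated wild-type arrays with compound A and 9.75% in stimulated knockout cells. With XCT790, 42.9% lay wholly below. The share among other gene pairs was not computed. For XCT790 in the Psmb10 to Psmb7 pair the exact p was 0.30.

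**Figure D2:**
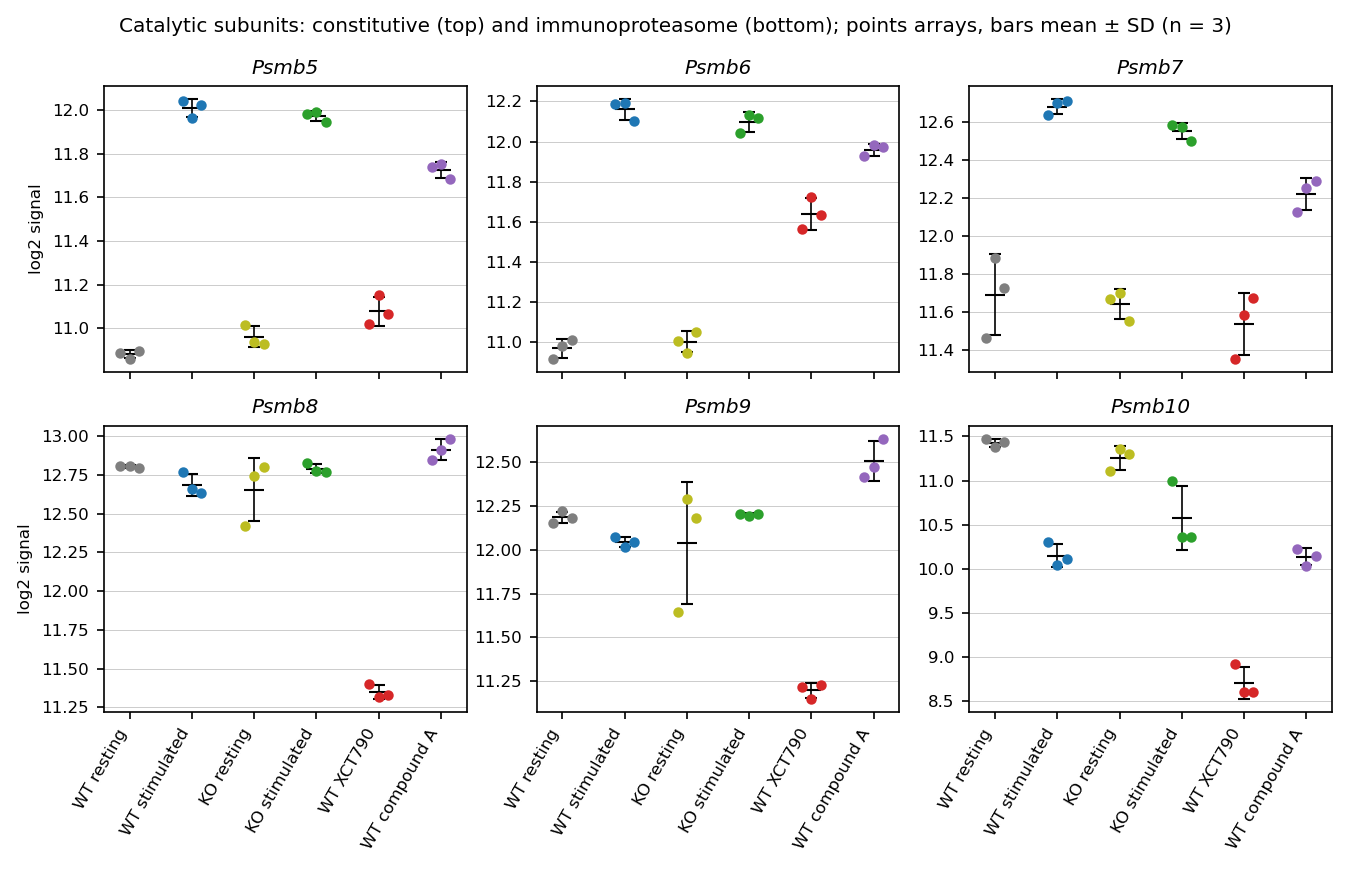
Log2 signal (vertical axis, not starting at 0) of the constitutive and inducible catalytic genes in the 6 groups (horizontal axis); points are arrays, bars the mean ± SD (n = 3). Psmb5, Psmb6 and Psmb7 step up by 0.99 to 1.19 on stimulation of wild-type cells, while Psmb10 falls and all 3 inducible genes are lowest with XCT790.

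The 19S cap rose throughout in wild-type cells. All 6 ATPase genes of the base rose, by 0.83 (Psmc3) to 1.47 (Psmc5), as did the 3 other base subunits: the scaffold genes Psmd1 by 1.64 ± 0.09 and Psmd2 by 1.10 ± 0.10, and the ubiquitin receptor gene Psmd4 by 0.37 ± 0.07. All 8 lid genes rose, by 0.75 (Psmd8) to 1.99 (Psmd7), with a median of 1.17. Psmd7, the partner of the deubiquitinase subunit Psmd14 in the lid, read 9.00, 9.17 and 9.15 at rest and 11.00, 11.14 and 11.13 after stimulation (3.96-fold; 1.99 ± 0.08, SE; limma adjusted p = 3.92e-11). Psmd14 itself rose by 1.17 ± 0.09. Psmd9 and Psmd10, chaperones that assemble the base, rose by 1.34 ± 0.12 and 0.73 ± 0.12. The third, Psmd5, read 8.95, 8.81 and 9.03 and then 9.14, 9.17 and 9.14 (0.22 ± 0.09; limma adjusted p = 0.0459), a call lost without wild-type resting array 1 or 2 or any 1 wild-type stimulated array (adjusted p = 0.0754 to 0.174).

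All 4 chaperones of the core rose, with a median of 1.51. Psmg1, which pairs with Psmg2, read 9.67, 9.65 and 9.74 at rest and 10.87, 11.00 and 10.87 after stimulation (2.33-fold; limma adjusted p = 3.36e-08). Psmg2 read 10.13, 10.03 and 10.13 and then 11.22, 11.31 and 11.21 (2.23-fold; limma adjusted p = 9.4e-09). Psmg3, which pairs with Psmg4, read 8.00, 8.11 and 8.23 and then 9.91, 9.93 and 9.87 (3.47-fold; limma adjusted p = 4.01e-07). Psmg4 read 7.53, 8.00 and 8.10 and then 9.69, 9.82 and 9.81 (3.72-fold; limma adjusted p = 2.35e-08). None of the 4 overlapped between the groups.

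Among the caps that replace the 19S, the nuclear activator stood first. Psme3, which encodes PA28γ, read 7.85, 7.67 and 8.03 in resting and 10.63, 10.66 and 10.66 in stimulated wild-type cells, a 6.97-fold rise (2.80 ± 0.09, SE; limma adjusted p = 8.71e-12) and the largest of the 47. Psme1, the interferon-inducible PA28α, read 13.06, 13.10 and 13.09 and then 13.60, 13.66 and 13.67 (1.47-fold; 0.56 ± 0.10; limma adjusted p = 1.88e-04). Psme4, encoding PA200, read 10.39, 10.23 and 10.29 and then 10.52, 10.55 and 10.54 (1.18-fold; 0.23 ± 0.07; limma adjusted p = 0.00852). Psmf1, encoding the inhibitor PI31, read 7.67, 7.73 and 7.67 and then 8.80, 8.71 and 8.72 (2.08-fold; 1.05 ± 0.09; limma adjusted p = 1.19e-07). Its other probe sets at measurable level moved by 0.07 and 0.17, so the size for Psmf1 depends on the probe set. The other Psme3 probe set at measurable level rose by 1.74, less than the 1.99 of Psmd7. The first rank of Psme3 therefore depends on the probe set. Of the 2 genes that share only the prefix, Psmc3ip went from 5.50, 5.37 and 5.99 to 7.93, 7.92 and 7.76 (4.76-fold; 2.25 ± 0.21; limma adjusted p = 1.46e-07), and Psme3ip1 differed by -0.02 (95% interval -0.20 to 0.16).

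**Figure D3:**
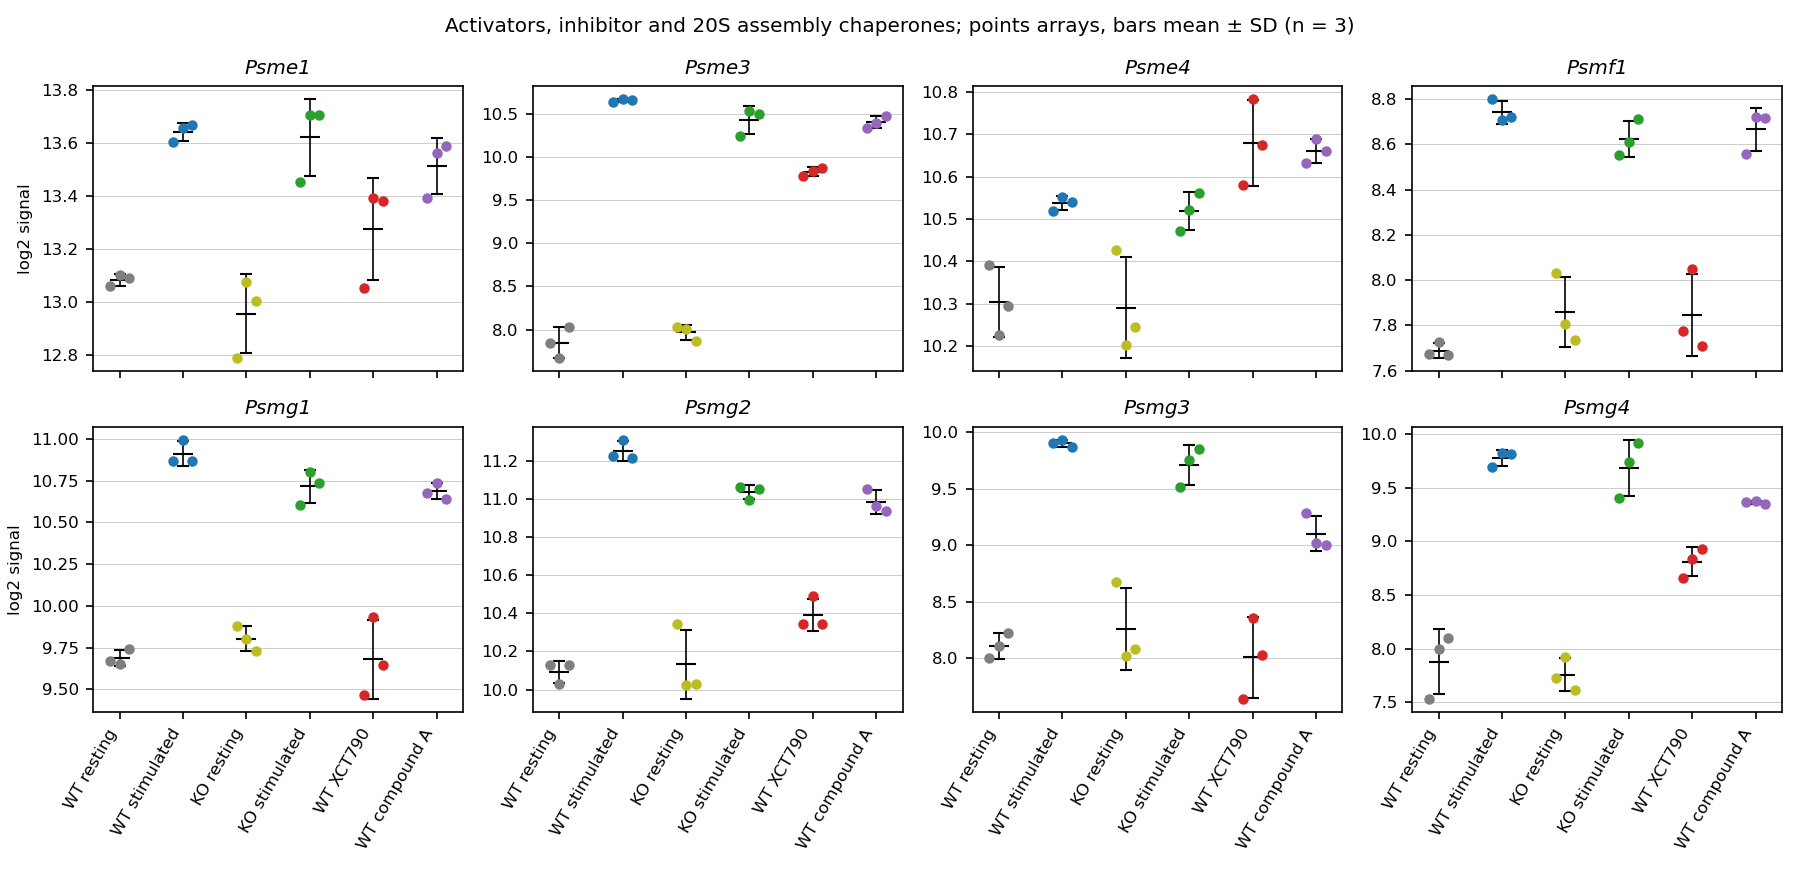
Log2 signal (vertical axis, not starting at 0) of the activators Psme1, Psme3 and Psme4, the inhibitor Psmf1 and the chaperones Psmg1 to Psmg4 in the 6 groups; points are arrays, bars the mean ± SD (n = 3). Psme3 shows the widest step, from 7.67 to 8.03 at rest to 10.63 to 10.66 after stimulation in wild-type cells.

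Knockout cells responded in most of the same genes. In their response 41 of 47 members rose, each of which also rose in wild-type cells, and 1 fell, with a median of 0.89, against 0.02 over all genes, of which 37.7% rose and 35.7% fell (73.4% in all). The arrays of 42 members lay wholly above and of 1 wholly below rest (38.3% and 35% of all genes). Psme3 again rose most, from 8.03, 8.01 and 7.87 to 10.23, 10.53 and 10.50 (5.47-fold; 2.45 ± 0.09, SE; limma adjusted p = 4.28e-11). Its other measurable probe set rose by 1.55. Psmg4 went from 7.73, 7.92 and 7.62 to 9.40, 9.74 and 9.92 (3.81-fold) and Psmg3 from 8.67, 8.02 and 8.08 to 9.51, 9.76 and 9.85 (2.73-fold). Psmb5, Psmb6 and Psmb7 rose by 1.01 ± 0.05, 1.10 ± 0.06 and 0.91 ± 0.10. All 17 genes of the 19S cap rose, by 0.39 (Psmd4) to 1.44 (Psmd7), as did all 7 alpha genes, by 0.72 to 1.15. Psmb10 read 11.11, 11.36 and 11.30 and then 11.00, 10.36 and 10.36, a fall of 0.68 in log2 (SE 0.15; limma adjusted p = 7.8e-04) in which stimulated array 1 was the highest. The members that did not pass were Psmb1, Psmb8, Psmb9, Psmd5 and Psme3ip1. Of these, Psmb8 passed upward without knockout resting array 3 (0.21; adjusted p = 0.0447), and Psmb9 (0.29; 0.0417) and Psmb1 (0.17; 0.0317) without knockout resting array 2. Psmb1 also passed with a common median (0.17 at adjusted p = 0.0237), with array weights (0.11 at adjusted p = 0.0291), without the filter (0.13 at adjusted p = 0.0285) and under the trended, robust prior (0.13 at adjusted p = 0.0379). In the same comparison 5 of 5 tested B cell markers fell (median -2.78), with 7 of 8 macrophage and 5 of 5 erythroid markers. All 7 tested neutrophil precursor markers fell, and of 7 T cell markers 4 fell and 1 rose. The part of these cell types was not tested. Psme4, at 0.23 ± 0.07, lost its call without knockout resting array 2 (adjusted p = 0.0503) and in a fit on the 2 groups alone (0.0681).

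Whether the responses differed was tested as the interaction of genotype and stimulation. It passed for 1 of 47 members, Psmd7, against 0.902% of all genes (0.48% up and 0.422% down). The median over the members was -0.14, against 0.05 over all genes. Above 0 were 9 of the 47 members and 3945 of the 6873 genes. The members were read on the same arrays, so they are not independent results. Psmd7 read 9.00, 9.17 and 9.15 in resting wild-type, 9.84, 9.76 and 9.65 in resting knockout, 11.00, 11.14 and 11.13 in stimulated wild-type and 11.12, 11.18 and 11.27 in stimulated knockout cells. Its rise was 1.99 with and 1.44 without ERRα, a difference of -0.54 ± 0.11 (SE; limma adjusted p = 0.0373). The resting groups did not overlap and the stimulated groups did. The call ended in 9 of 12 fits that left out 1 array, that is without any array other than wild-type stimulated 1 and knockout resting 2 and 3 (adjusted p = 0.0561 to 0.111), in a fit on the 4 groups alone (0.0719) and with the mean of all its probe sets (0.25). For the catalytic genes the interaction was 0.60 (95% interval 0.15 to 1.05; limma adjusted p = 0.166) for Psmb10, 0.25 (0.00 to 0.51) for Psmb8 and 0.30 (-0.07 to 0.67) for Psmb9, and -0.12 to -0.08 for Psmb5, Psmb6 and Psmb7. None of these passed. The gene at the next smallest adjusted p was Psmd1 (-0.44 ± 0.13; 0.121). With arrays 2 and 3 alone 3 members passed, Psmb10 (0.37) upward and Psmd1 and Psmd7 downward.

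**Figure D4:**
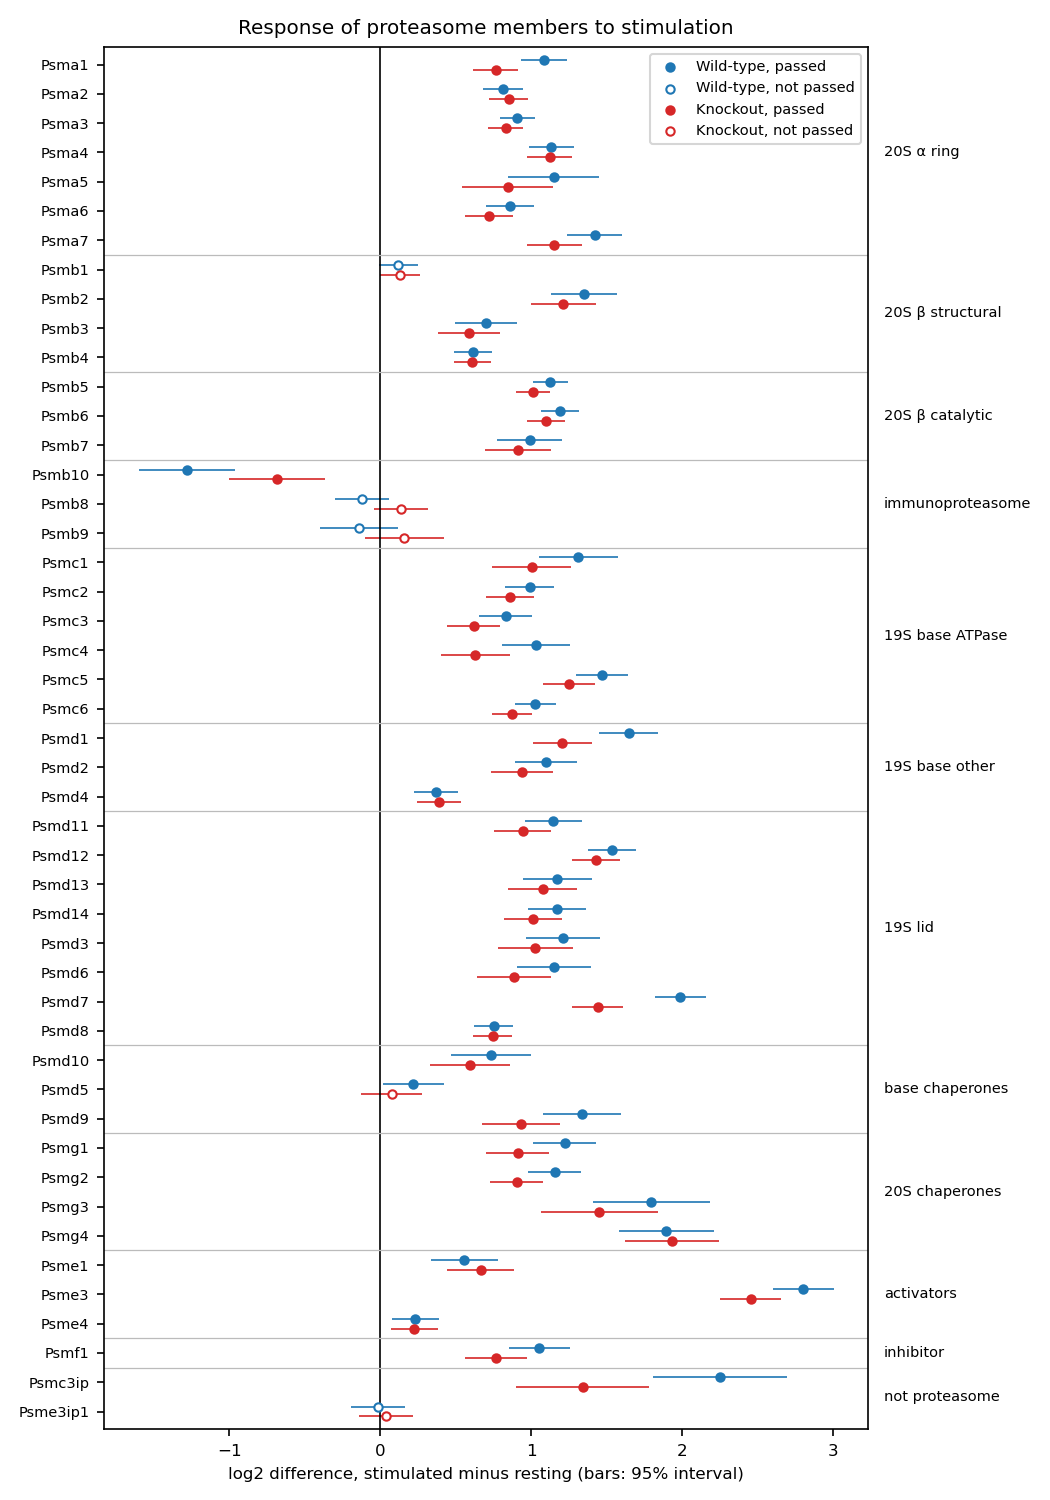
Log2 difference of stimulated from resting cells (horizontal axis, with 95% intervals) for the 47 tested members in wild-type (blue) and knockout cells (red); filled points passed and open points did not. Psme3 lies farthest right in both, at 2.80 and 2.45, and Psmb10 farthest left, at -1.28 and -0.68.

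Before stimulation, 5 of 47 members were higher in knockout than in wild-type cells and 0 lower, against 6.74% of all genes higher and 12.3% lower (19% in all). The median over the members was 0.10 and over all genes -0.11. The knockout arrays lay wholly above for 13 members and wholly below for 3 (11% and 27.9% of all genes). Psmd7 was 1.56-fold higher (0.65 ± 0.08, SE; limma adjusted p = 1.29e-04). Psma7 read 10.93, 10.87 and 10.80 in wild-type and 11.47, 11.18 and 11.37 in knockout cells (1.39-fold; 0.47 ± 0.08; limma adjusted p = 0.00242). Psmd1 read 10.34, 10.13 and 10.18 and then 10.84, 10.58 and 10.48 (1.34-fold; 0.42 ± 0.09; limma adjusted p = 0.00794). These 3 kept their calls whichever array was left out and on arrays 2 and 3 alone, without overlap between the groups, although in a fit on the 2 groups alone Psma7 and Psmd1 missed the threshold (0.066 and 0.112). Psma4 (0.23 ± 0.07) and Psma1 (0.21 ± 0.07) passed by less. Psma4 lost its call without knockout resting array 1 or wild-type resting array 2 or 3 (0.0826 to 0.113), Psma1 without any 1 of the 6 arrays (0.058 to 0.138), and the mean of its 3 probe sets turned the sign of Psma1 (-0.091). In the same knockout arrays, all 5 erythroid and 6 of 7 neutrophil precursor markers were higher and passed. All 8 macrophage markers differed upward but 0 passed, and 2 of 5 tested B cell markers were lower and passed. The part of these cell types in the differences was not tested.

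After stimulation no member passed between the genotypes, against 2.18% of all genes (1.59% higher and 0.597% lower in knockout cells). The knockout arrays lay wholly above for 5 members and wholly below for 12 (9.75% and 23% of all genes). The smallest limma adjusted p was 0.13, for Psma4. At an unadjusted p under 0.05 in limma there were 7 of 47, near the 15.5% of all 6873 genes at that threshold, namely Psma4, Psma7 and Psmb10 higher and Psmd8, Psmg2, Psme3 and Psmc3ip lower in knockout cells. Psmb10 read 10.30, 10.04 and 10.10 in wild-type cells and 11.00, 10.36 and 10.36 in the knockout, which differed by 0.43 (95% interval 0.11 to 0.74; limma adjusted p = 0.176) without overlap. It was 0.29 on arrays 2 and 3 alone, where it passed (0.0258) as the only member. With array weights, which let noisy arrays count less, 6 passed: Psma4, Psma7, Psmb10 and Psmd4 higher and Psma1 and Psmg2 lower. For Psmb5, Psmb6 and Psmb7 the differences were -0.04 (-0.15 to 0.08), -0.06 (-0.19 to 0.06) and -0.13 (-0.34 to 0.09).

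With XCT790, an inverse agonist of ERRα, most of the proteasome was lower than in stimulated wild-type cells. Of 47 members 42 fell and 0 rose, with a median of -0.73, against -0.06 over all genes, of which 29.1% rose and 36.9% fell (66% in all). The arrays of 43 members lay wholly below and of 4 wholly above the stimulated ones (42.9% and 32.8% of all genes). This comparison and that of compound A share the 3 stimulated arrays. Every alpha gene fell, by 0.25 (Psma3) to 0.73 (Psma1). Among the constitutive cutters, Psmb5 read 11.02, 11.15 and 11.06 with XCT790 (1.91-fold lower than stimulated; -0.93 ± 0.05, SE; limma adjusted p = 6.23e-09). Psmb7 read 11.35, 11.58 and 11.67 (2.21-fold lower; -1.14 ± 0.10), and Psmb6 11.56, 11.72 and 11.63 (1.43-fold lower; -0.52 ± 0.06). The stimulated arrays of all 3 lay above.

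The 3 immunoproteasome genes fell with XCT790, Psmb8 and Psmb10 further than the median member (-0.73). The fall of Psmb9 was near that median and smaller than those of Psmb5, Psmb7 and Psmb2 (-0.93, -1.14 and -1.13). Psmb8 read 11.40, 11.32 and 11.33 (2.52-fold lower than stimulated; -1.34 ± 0.08, SE; limma adjusted p = 1.15e-08). Psmb10 read 8.91, 8.60 and 8.60 (2.72-fold lower; -1.44 ± 0.15; limma adjusted p = 9.82e-07), and Psmb9 11.22, 11.15 and 11.23 (1.8-fold lower; -0.85 ± 0.12; limma adjusted p = 2.47e-05). All 3 lay below the resting arrays too: Psmb10 by 2.72 in log2 (6.61-fold), Psmb8 by 1.45 and Psmb9 by 0.98. They were the only proteasome genes more than 0.2 below their resting level. The mean of 7 T cell markers was 11.58 to 11.63 with XCT790, against 11.90 to 12.10 in stimulated cells, and Cd4 read 8.30 to 8.82 against 9.49 to 9.70. The list was mixed: 3 of the 7 fell and 1 rose (36.9% and 29.1% of all genes), with differences from -1.19 to 0.47 and a median of -0.27. Their part in these falls was not tested. Macrophage, neutrophil precursor and erythroid markers averaged under 2.81 in both groups. The mean of 6 B cell markers was higher, at 4.99 to 5.31 with XCT790 and 5.09 to 5.42 in stimulated cells, and its part was not tested.

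The 3 largest falls lay outside the barrel, followed by Psmb10 (-1.44) and Psmb8 (-1.34) within it. The chaperone Psmg3 read 7.64, 8.35 and 8.03 with XCT790 (3.72-fold lower than stimulated; -1.90 ± 0.18, SE; limma adjusted p = 4.92e-07). Psmc3ip read 6.07, 6.13 and 5.79 (3.67-fold lower), and the base chaperone Psmd9 7.15, 7.15 and 7.04 against 8.45, 8.66 and 8.64 (2.77-fold lower; limma adjusted p = 1.39e-07). Psmg1 read 9.46, 9.93 and 9.64, Psmg2 10.34, 10.49 and 10.34, and Psmg4 8.66, 8.84 and 8.93, falls of 1.23, 0.86 and 0.96. The XCT790 arrays of Psmg1 and Psmg3 overlapped the resting arrays, while those of Psmg2 and Psmg4 lay above them. Psme3 read 9.78, 9.84 and 9.87, 1.77-fold below stimulated but 3.94-fold above resting cells. These sizes depend on the probe set: the other one rose by 1.74 on stimulation and was 1.35 lower with XCT790 than in stimulated cells. Psmf1 read 7.78, 8.05 and 7.71, a fall of 0.90.

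The 5 members that did not pass with XCT790 were Psmc6, Psmd4, Psmd5, Psmd11 and Psme4. Psmd11, a lid scaffold gene, read 12.30, 12.27 and 12.32 in stimulated cells and 12.42, 12.41 and 12.41 with XCT790 (0.12; 95% interval -0.07 to 0.31). Psme4 read 10.58, 10.78 and 10.67 (0.14; -0.01 to 0.30) and Psmc6 averaged 11.69 in stimulated cells and 11.80 with XCT790 (0.11; -0.02 to 0.24). The arrays of all 3 lay above the stimulated ones. Psmd11 passed in a fit on the 2 groups alone (0.12, adjusted p = 0.0393). Psme4 passed without XCT790 array 1 (0.19; adjusted p = 0.0396), and Psme4 and Psmc6 both passed once all arrays had a common median (0.19 and 0.16). Psmd4 (-0.14 ± 0.07) passed downward without wild-type stimulated array 3 (0.0477). For Psmc6 this rests on the probe set: its other probe sets were 1.01 and 0.91 lower with XCT790, and the mean over all 3 fell by 0.60 (limma adjusted p = 4.82e-05). Psma1 went the other way, since its dimmer probe sets read 0.01 and 0.82 higher and their mean with the main one was 0.035. The calls of Psma5 and Psmc4 were lost without XCT790 array 1 (adjusted p = 0.0507 and 0.0517).

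With compound A fewer members passed, and the median difference was smaller. Against stimulated cells 15 of 47 fell and 4 rose, with a median of -0.14, against -0.03 over all genes, of which 18.7% fell and 14.5% rose (33.2% in all). The arrays of 30 members lay wholly below and of 7 wholly above the stimulated ones (33.3% and 24.1% of all genes). The largest falls were again Psmc3ip, at 6.42, 6.72 and 6.85 (2.31-fold lower; -1.21 ± 0.21, SE; limma adjusted p = 6.19e-04), Psmg3, at 9.29, 9.02 and 9.00 (1.74-fold lower; -0.80 ± 0.18; limma adjusted p = 0.00405), and Psmd9, at 7.97, 7.97 and 7.89 (1.56-fold lower; -0.64 ± 0.12; limma adjusted p = 0.00136). All 3 constitutive cutters fell: Psmb7, at 12.12, 12.25 and 12.29, by 0.46 ± 0.10, Psmb5, at 11.74, 11.75 and 11.69, by 0.28 ± 0.05, and Psmb6, at 11.93, 11.98 and 11.97, by 0.20 ± 0.06. All 3 lay below the stimulated arrays. Psmb6 lost its call without compound A array 1 or wild-type stimulated array 1 or 2 (adjusted p = 0.053 to 0.0654). None of the alpha genes passed, although Psma1 did in a fit on the 2 groups alone (-0.14, adjusted p = 0.0281), with array weights (-0.15 at adjusted p = 0.00594) and on arrays 2 and 3 alone (-0.16 at adjusted p = 0.0459), Psma5 on arrays 2 and 3 alone (-0.24 at adjusted p = 0.0409) and Psma6 with array weights (-0.13 at adjusted p = 0.0183).

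The inducible cutters did not fall with compound A. Psmb9 read 12.41, 12.47 and 12.63, above all stimulated arrays (1.38-fold higher; 0.46 ± 0.12, SE; limma adjusted p = 0.00986). Psmb8 read 12.85, 12.91 and 12.98 (1.17-fold higher; 0.23 ± 0.08; limma adjusted p = 0.0495), but this call ended whichever array was left out (adjusted p = 0.0502 to 0.162) and with the array number as a block (0.0617). Psmb10 read 10.22, 10.03 and 10.14, a difference of -0.01 (95% interval -0.33 to 0.30). The other rises were Psmd5, at 9.31, 9.64 and 9.66 (0.39 ± 0.09; limma adjusted p = 0.00612), and Psmd4 (0.19 ± 0.07), whose call ended without compound A array 2 or 3 or wild-type stimulated array 2 or 3 (0.11 to 0.169) and with the block (0.0577).

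Of the 19 compound A calls, 9 held whichever array was left out: the falls of Psmb5, Psmb7, Psmc3, Psmc5, Psmd9, Psmg3 and Psmc3ip and the rises of Psmb9 and Psmd5. Psmc1, Psmd1, Psmd12, Psmd13, Psmg2, Psmg4 and Psme3ip1 lost theirs without at least 1 array, with the 3 genes given above. The count was 11 without wild-type stimulated array 2, 12 without array 3, 11 without compound A array 2 and 10 without array 3. With the block, Psme3ip1 also lost its call (0.0555) and Psmd7 gained one (-0.21; 0.0459).

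**Figure D5:**
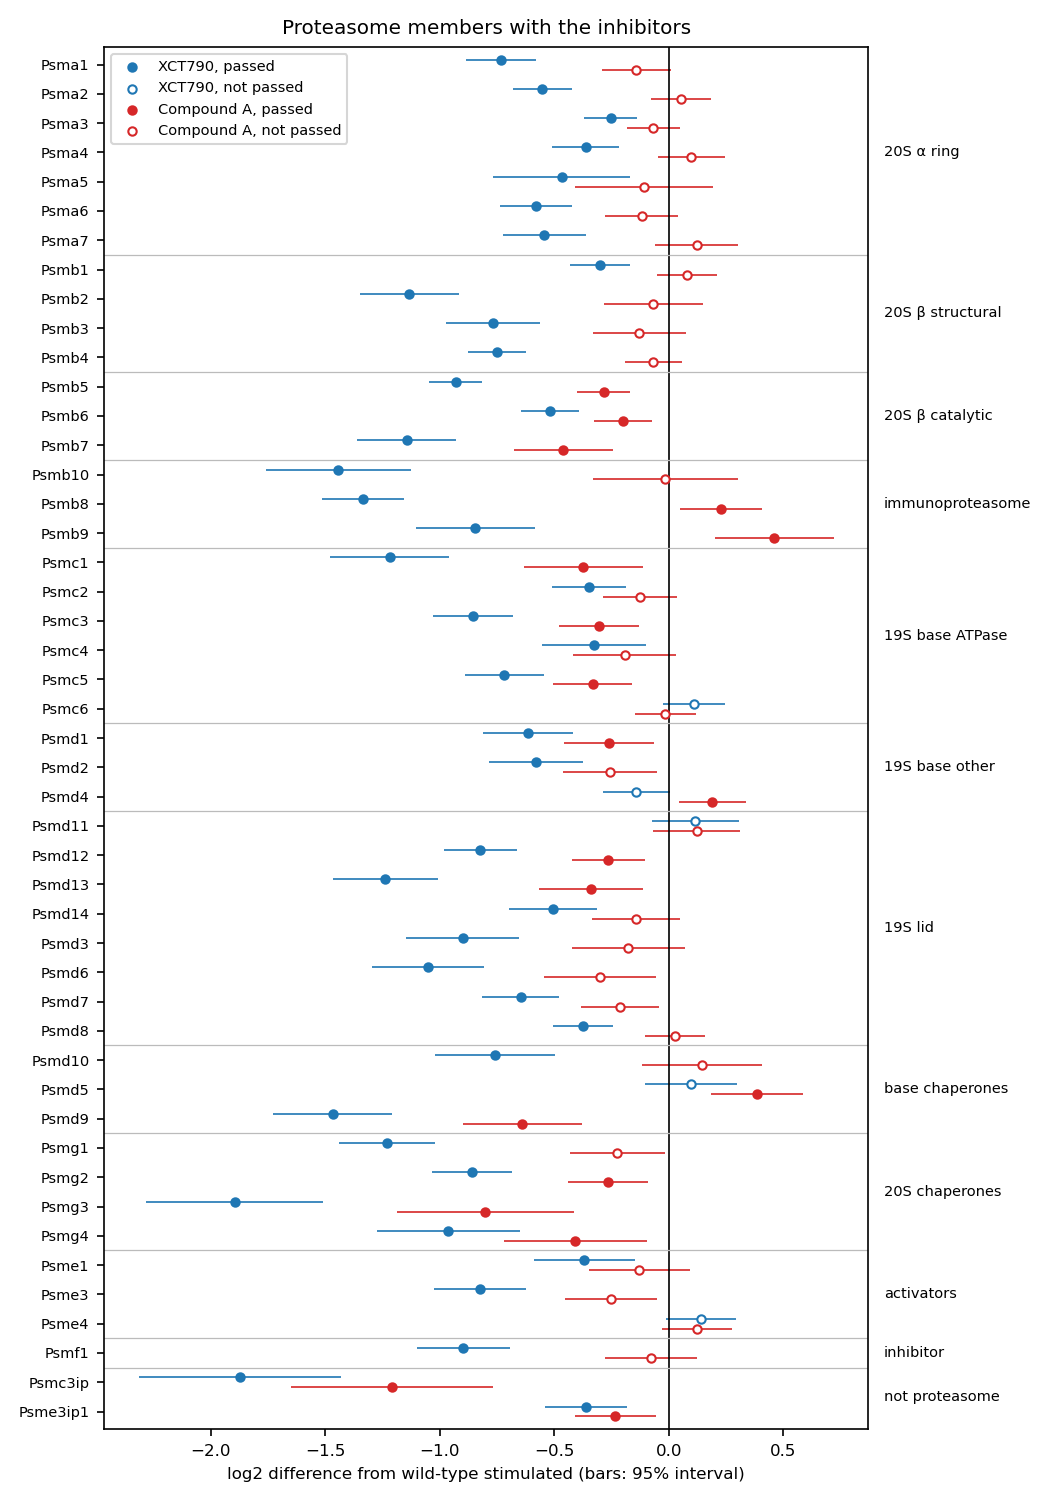
Log2 difference from stimulated wild-type cells (horizontal axis, with 95% intervals) for the 47 tested members with XCT790 and with compound A, both at 20 µM for 12 h; filled points passed and open points did not. The XCT790 points centre on -0.73 and the compound A points on -0.14, and the inducible cutters Psmb8 and Psmb9 lie on opposite sides of 0.

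Set directly against each other at the same dose and time, the compounds differed in 41 of 47 members, all lower with XCT790, with a median of -0.56, against -0.02 over all genes, of which 27.8% were lower and 24.8% higher (52.6% in all). The XCT790 arrays lay wholly below for 41 members and wholly above for 1 (34.1% and 29.4% of all genes). This is 1 pair of compounds, with p-values adjusted over all genes. The 3 inducible cutters differed most: Psmb8 by -1.56 ± 0.08 (2.95-fold; SE; limma adjusted p = 5.78e-09), Psmb10 by -1.43 ± 0.15 (2.69-fold; limma adjusted p = 2.77e-06) and Psmb9 by -1.31 ± 0.12 (2.47-fold; limma adjusted p = 1.07e-06). Psmg3 followed at -1.10 ± 0.18, Psmb2 at -1.07 ± 0.10 and Psmg1 at -1.01 ± 0.10. The 6 members that did not pass were Psmd11 (-0.01; 95% interval -0.20 to 0.18), Psme4 (0.02; -0.14 to 0.17), Psmc4 (-0.13; -0.36 to 0.09), Psmc6 (0.12; -0.01 to 0.26), Psme3ip1 (-0.13; -0.31 to 0.05) and Psme1 (-0.24; -0.46 to -0.02). For Psmc6 the mean of all probe sets was -0.32. Of the 41 calls, 36 held whichever array was left out. The call of Psma5 was lost without any 1 of the 6 arrays but XCT790 array 2 (adjusted p = 0.054 to 0.198), Psmc2 without XCT790 array 1 or compound A array 1 or 2 (0.0602 to 0.0681), Psmc3ip without array 3 of either (0.0587 and 0.0607), Psmd2 without XCT790 array 1 (0.0611) and Psmd5 without compound A array 2 or 3 (0.0775 and 0.0841).

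Against resting cells, 27 members were higher and 6 lower with XCT790 (33.6% and 38.3% of all genes, 71.9% in all), and 44 higher and 2 lower with compound A (32.6% and 37.1%, 69.7% in all). The medians were 0.30 and 0.86. The XCT790 arrays lay wholly above rest for 26 members and below for 7 (36.2% and 40.4% of all genes), and those of compound A above for 45 and below for 2 (37.1% and 41.1%). With XCT790 the largest rises were Psme3 (1.98 ± 0.09, SE), Psmd7, at 10.30, 10.53 and 10.50 (1.34 ± 0.08), and Psmd11 (1.26 ± 0.09). The place of Psme3, here and with compound A, rests on its main probe set. All 7 alpha genes (median 0.65) and 13 of the 17 19S genes (median 0.64) stayed above rest. None of the 4 structural beta genes passed upward, and Psmb1 and Psmb4 were lower by 0.18 and 0.14. Psmb2 averaged 10.77 with XCT790 and 10.55 at rest (0.22; limma adjusted p = 0.0688). It passed upward with a common median (0.31 at adjusted p = 0.0112), array weights (0.25 at adjusted p = 9.84e-04), arrays 2 and 3 alone (0.35 at adjusted p = 0.00158) and without XCT790 array 1 (0.35 at adjusted p = 0.00181). Psmb1 lost its call without XCT790 array 3 or resting array 2 or 3 (adjusted p = 0.0504 to 0.0745), Psmb4 without any 1 array but XCT790 array 2 (0.0625 to 0.192), and Psmd3 (0.31) without XCT790 array 2 or 3 or resting array 2 (0.077 to 0.119). With compound A the largest rises were Psme3, at 10.33, 10.39 and 10.48 (2.55 ± 0.09), Psmd7 (1.77 ± 0.08) and Psma7, at 12.52, 12.35 and 12.36 (1.54 ± 0.08). Psmb10 was 2.45-fold below rest with compound A (-1.29 ± 0.15) and Psme3ip1 1.19-fold below (-0.25 ± 0.08), the latter call lost without compound A array 2 or wild-type resting array 3 (0.0546 and 0.0527).

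Genes that work with the proteasome were followed as 3 lists. Of 17 partners, 11 rose and 2 fell in the wild-type response, 12 rose and 2 fell in the knockout response, and with XCT790 6 fell and 4 rose relative to stimulated cells. Of all genes, 37% rose and 38.4% fell in the wild-type response, 37.7% rose and 35.7% fell in the knockout response, and 36.9% fell and 29.1% rose with XCT790, so the partners' counts with XCT790 are near those of all genes. Uchl5 and Usp14, the deubiquitinases that dock on the 19S cap, rose by 1.46 ± 0.09 and 1.39 ± 0.11 in wild-type cells. The core maturation factor Pomp read 11.62, 11.63 and 11.63 at rest, 12.83, 12.64 and 12.76 after stimulation, 11.04, 11.31 and 11.05 with XCT790 and 12.49, 12.21 and 12.24 with compound A. It fell by 1.61 ± 0.09 with XCT790 (limma adjusted p = 5.49e-09) and by 0.44 ± 0.09 with compound A (limma adjusted p = 0.00254). Zfand5, a proteasome-binding activator, rose by 1.35 ± 0.10 with XCT790 and by 0.76 ± 0.10 with compound A.

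Of 6 measured genes listed for ubiquitin supply and Nrf1 regulation, 4 rose and 1 fell with XCT790, against 29.1% and 36.9% of all genes. The 4 that rose were Nfe2l1, Nfe2l2, Maff and Mafg, and no gene of ubiquitin supply passed. Nfe2l1, encoding Nrf1, read 8.82, 8.72 and 8.81 in stimulated cells and 9.47, 9.50 and 9.38 with XCT790 (0.67 ± 0.07, SE; limma adjusted p = 1.45e-06). Nfe2l2, encoding the related Nrf2, rose by 1.37 ± 0.16. The small Maf genes, whose products pair with both, rose by 3.57 ± 0.19 (Maff) and 1.55 ± 0.14 (Mafg) and the gene that fell, named after its value was seen, was Mafk (-0.40 ± 0.16). With compound A 1 of the 6 rose and 1 fell, near the 14.5% and 18.7% of all genes, and Nfe2l1 differed by -0.04.

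Of 12 class I antigen processing genes and interferon regulators, 5 fell and 1 rose with XCT790 (H2-D1, by 0.14, named after its value was seen), 4 rose and 0 fell with compound A, and 7 were lower and 0 higher with XCT790 than with compound A. Of all genes, 36.9% fell and 29.1% rose with XCT790, 14.5% rose and 18.7% fell with compound A, and 27.8% were lower and 24.8% higher with XCT790 than with compound A. The 5 of 12 that fell with XCT790 are near the share of all genes. Tap2, which with Tap1 forms the peptide transporter, read 10.50, 10.43 and 10.46 in stimulated cells, 9.63, 9.63 and 9.55 with XCT790 and 10.73, 10.81 and 10.89 with compound A, a difference of -1.21 ± 0.09 between the compounds (limma adjusted p = 1.93e-07). Irf8, an interferon-related transcription factor, read 12.03, 12.09 and 12.26 in stimulated cells, 8.36, 9.62 and 9.97 with XCT790 and 11.66, 11.81 and 12.01 with compound A. Tapbp was 0.84 ± 0.09 and Erap1 0.61 ± 0.09 lower with XCT790 than with compound A.

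For 25 members' probe sets other than the ones used, at or above log2 4 on at least 3 arrays, the sign matched the main probe set in 25 of 25 for the wild-type response, 24 for the knockout response, 18 for XCT790 and 20 for compound A. The opposite signs with XCT790 lay in Psma1, Psmc6, Psmd11 and Psme4, and with compound A in Psma1, Psmd7 and Psmd11. The catalytic genes had 1 probe set each, so no such check exists for them.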

How the data were processed

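Per the submitters' processing notes, the authors deposited log2 signals made with GCRMA (version and annotation not given in the sources used here); all 18 arrays share the same sorted values, from 1.83 to 15.4. Of 22690 probe sets, 20380 have 1 gene in the platform annotation; 1555 have none, 691 several and 64 are controls, all left out. Each gene was read from its brightest probe set, and 6873 genes at or above log2 4 on at least 3 arrays were tested. limma 3.58.1 (R 4.3.3) was fitted to all 6 groups of 3 arrays with 10 comparisons and was tested on simulated data first. The number of arrays limits the precision. The limma p-values weigh each difference against the spread between samples within groups, pooled over the 6 groups and moderated across genes.

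The members and lists were chosen with earlier results of these data known. Array values are printed for the catalytic pairs, activators, chaperones, and the 3 largest rises and falls in a comparison; other genes are the up to 4 of smallest adjusted p in a list. Psmd5, read by array in the wild-type response, was chosen as a call that single arrays decide.

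Deviations of same-numbered arrays correlated at over 0.1 for all 3 numbers between the knockout groups and between the genotypes. The same held between each inhibitor and stimulated cells (0.148 to 0.645 in all). The array number may therefore pair these samples, by the data and not by the labels. Such pairing would link the other groups too, although their correlations did not all exceed 0.1. The main fit and the exact permutations ignored it, and the fit with the array number as a block allowed for it. Alternatives were no filter or one at log2 6, a common median, the mean of a gene's probe sets, a trended robust prior, the compared groups alone, array weights, the block and leaving out arrays. Pair differences were tested by exact permutation over arrays, a test added after seeing the data. Promoters are from RefSeq (GRCm38.p6; 40 of 48 members matched). Figures used Python 3.11.15 and matplotlib 3.10.9.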

Additional observations from a re-analysis of the deposited data

Results flagged for a closer look

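Psmd7, a lid gene, was the 1 member whose response to stimulation differed between the genotypes by a test of the difference itself: the interaction was -0.54 (limma adjusted p = 0.0373), with a rise of 1.99 in wild-type and 1.44 in knockout cells. The resting knockout arrays were 0.65 above the resting wild-type arrays, and the same knockout arrays held more erythroid and neutrophil precursor marker signal, whose part was not tested. The second probe set of Psmd7 at measurable level was much dimmer, with a mean of 5.03 against 10.4 for the main one. It rose by 0.27 in wild-type and 0.30 in knockout cells.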

How the results depend on the processing

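The counts of members called in the wild-type and knockout responses, with XCT790, between the compounds and against rest stayed within 1.5 times under every alternative run. Other counts moved. The interaction count (1) was 0 with the mean of a gene's probe sets and with the compared groups alone, 4 with array weights, 3 on arrays 2 and 3 alone and 0 to 2 with 1 array left out. Between the resting genotypes the count (5) was 8 with a common median, 1 with the compared groups alone, 9 with array weights, 3 on arrays 2 and 3 and 3 to 6 with 1 array left out. Between the stimulated genotypes (0) it was 6 with array weights and 1 on arrays 2 and 3. For compound A against stimulated cells (19) it was 31 with array weights and 10 to 13 with 1 array left out. The arrays 2 and 3 alternative was chosen after seeing the data.

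The mean of a gene's probe sets turned 4 signs: Psmc6 with XCT790 against stimulated cells (-0.60) and against compound A (-0.32), and Psma1 between resting genotypes (-0.091) and with XCT790 (0.035). Of 7332 values of single genes, 7065 kept direction and side of the threshold, 145 lost a call, 118 gained one and 4 turned; the cause was not tested. With the array number as a block the counts, in the order of the report, were 42 (41 up) in the wild-type, 42 in the knockout response, 1 for the interaction, 5 at rest, 0 after stimulation, 42 with XCT790, 17 with compound A, 41 between compounds, and 33 and 46 against rest. In comparisons whose array correlations did not all exceed 0.1, the block ended the calls of Psmd5 in wild-type cells (0.0619) and Psma5 between compounds (0.0525). It also ended that of Psmb4 with XCT790 against rest (0.0606), and Psme1 gained one in the last 2 comparisons (0.0104 and 0.0244). Beside these and those in the report it changed no other call of a member. Probe sets near background limit Psma8 to a level with no test.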
